A study of Mus musculus with 9 samples.

Results

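The response of cultured mouse microglia to bacterial lipopolysaccharide (LPS) was taken from the 3 arrays labelled LPS and the 3 labelled PBS, 6 of the 9 arrays of the series, and is described here across genes beyond the cytokines and chemokines. All 21212 rows of the table entered the test, and the 18786 rows with a single gene symbol could be named. The remaining 3 arrays, of cells given IL-4, served to estimate the spread and are quoted only beside some genes and marker lists.

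The cells of all groups were primary microglia from brains of newborn wild-type CD-1 mice, with the brains of a litter pooled, grown for 5 to 7 days per the labels (5 in the study's methods) in medium with serum and 10 ng/ml each of M-CSF and GM-CSF. These are the growth factors that keep macrophages and microglia alive in culture, and every group carried them, the PBS controls too. The medium was replaced by serum-free medium on the evening before, and the cells then received 100 ng/ml LPS, 20 ng/ml IL-4 or the same volume of PBS for 4 h. The labels do not say whether the 3 arrays of a group come from separate preparations, so a p-value below measures only how far these arrays scatter, and that scatter may be technical.

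Microglia are the resident macrophages of the brain. LPS, a cell wall component of Gram-negative bacteria, is recognized by TLR4 with CD14 and MD-2, and the receptor signals through MyD88 to NF-κB and MAP kinases and through TRIF to interferon regulatory factors. Besides cytokines, the pathway is known to induce its own inhibitors, enzymes of nitric oxide, prostaglandin and itaconate synthesis, and ligands for T cells, and activated macrophages are known to shift from respiration toward glycolysis.

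Replicate 3 of PBS and replicate 3 of LPS stood apart from replicates 1 and 2 in genes of motile cilia and of the oligodendrocyte lineage. The median of 49 motile cilia genes was 6.88, 6.94 and 8.53 on the PBS arrays and 6.61, 6.58 and 8.20 on the LPS arrays, and that of 12 oligodendrocyte lineage markers was 7.11, 7.19 and 8.34 and 6.89, 7.10 and 8.33. On the IL-4 arrays these medians were 7.98, 8.32 and 8.16 for motile cilia and 7.49, 7.74 and 7.65 for the oligodendrocyte lineage, above PBS replicates 1 and 2. In comparisons with the IL-4 arrays, the stimulus and the mix of cells thus cannot be told apart. The median of 14 astrocyte markers differed less between replicates, at 10.45, 10.42 and 10.56 with PBS and 10.03, 10.06 and 10.21 with LPS. Among them, Gfap read 10.85, 10.86 and 11.74 with PBS and 10.70, 10.74 and 11.54 with LPS, and Aqp4 read 11.32 to 12.01 and 11.48 to 12.09. The median of 23 microglia and macrophage markers was 10.43, 10.51 and 10.52 with PBS and 10.45, 10.47 and 10.34 with LPS, near that of the astrocyte markers. Csf1r read 10.77 to 11.85 over the 6 arrays, Itgam 10.19 to 10.62, Cx3cr1 7.60 to 10.86 and P2ry12 7.35 to 8.68. The medians of whole arrays were 7.2 to 7.37, so the lowest P2ry12 value lay near them. The cultures thus carried RNA of other glial cells in both groups, and which cells the changes below come from was not tested. Levels of different genes on an array do not give the share of a cell type. From staining, the study reports cultures made up mostly of microglia, with few neurons or astrocytes. By RT-PCR it reports similar rises of several cytokine genes in cells isolated with CD11b beads. In such bulk samples fewer cells of a type and less RNA per cell cannot be told apart. Values are given below in the order of replicates 1, 2 and 3, as deposited log2 values, and second values, from leaving out replicate 3 of both groups or from pairing arrays of the same number (the replicate block), stand beside named genes whose call they changed and beside lists whose counts they moved by over 1.5 times. Smaller moves of list counts are not printed. Over all rows, replicates 1 and 2 correlated with r = 0.9986 for PBS and 0.9977 for LPS, against 0.9866 to 0.9878 with replicate 3 of their group. Calls gained without replicate 3 thus rest in part on arrays that scatter less, and they give no independent support. With the block, Gfap had an adjusted p of 0.0464.

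LPS changed many genes by a little and fewer by a lot, and most of the changes past 4-fold were rises. At an adjusted p under 0.05 (limma, Benjamini-Hochberg over all rows) 8014 rows were called, 37.8% of those tested, with 3266 (15.4%) higher and 4748 (22.4%) lower. Among the calls the median difference was 0.56 on the log2 scale for the rises and −0.47 for the falls. At least 2-fold, 899 genes were higher (4.24% of all rows) and 509 lower (2.4%), and at least 4-fold, 279 were higher and 36 lower. All 50 genes that differed by at least 16-fold were higher. The 3 LPS and 3 PBS arrays did not overlap in 9700 rows (45.7%), among them 895 of the 899 and 505 of the 509 genes past 2-fold. The split of the calls depends on the scaling, since 40.8% of the calls were rises with the deposited values and 63.9% (5872 higher, 3323 lower) with the median of each array subtracted, where the median difference over all rows was 0.12 in place of 0.01. The counts past 4-fold and 16-fold changed by less than 1.5 times under the alternatives tried.

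**Figure D1:**
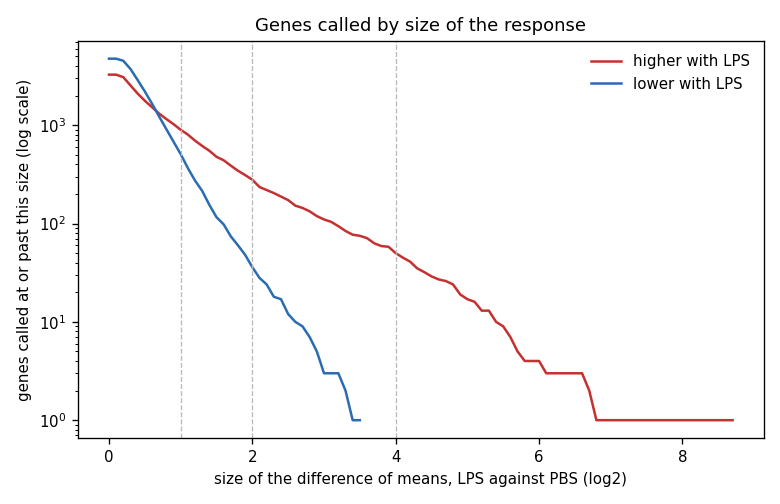
Number of genes called at an adjusted p under 0.05 whose difference of means (x axis, log2) was at least the given size, on a log scale, for genes higher (red) and lower (blue) with LPS. Dashed lines mark 2-fold, 4-fold and 16-fold. Small falls outnumber small rises, the curves cross below 2-fold, and the falls end at −3.54 while the rises reach 8.73.

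Cytokines and chemokines made up a minority of the large rises. Of the 279 genes at least 4-fold higher, 34 belong to a list of 48 measured cytokine and chemokine genes and 27 to a list of 43 interferon-stimulated genes. In these lists 46 and 42 genes rose and none fell (1 cytokine or chemokine gene fell with the replicate block), with medians of 3.19 and 2.26, against a median of 0.005 over all rows. The lists leave most of the 279 genes unaccounted for, and the largest of those outside the cytokines that could be named follow. With the rows split into 4 equal sets by their mean level over all 9 arrays, falls of at least 4-fold numbered 0, 3, 24 and 9 from the dimmest to the brightest set and rises of at least 4-fold 9, 47, 116 and 107. Of the 5303 rows in each set, 72, 865, 1928 and 1883 were called lower at any size and 376, 648, 985 and 1257 higher. The shares over all rows quoted beside the lists below thus include dim rows, which were called less often. The 36 genes that fell at least 4-fold had PBS means between 7.52 and 10.53 and LPS means between 5.04 and 8.38.

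Among rows with a single symbol that no other row shares, the largest rise outside the cytokines was that of Cd69. A row outside the cytokine list without such a symbol rose by more and could not be named. Cd69 is a C-type lectin of early lymphocyte and macrophage activation. It read 5.07, 5.13 and 5.45 with PBS and 11.71, 11.68 and 12.18 with LPS, a difference of 6.64 ± 0.15 (SE, adjusted p = 1.6e-08). Nos2, the inducible nitric oxide synthase, went from 5.77, 5.84 and 5.42 to 11.80, 11.75 and 11.62 (6.05 ± 0.11, adjusted p = 6.58e-09). Every LPS array lay far above every PBS array for both genes. Serpinb2, an inhibitor of plasminogen activators, rose by 5.79 ± 0.13 and Ptgs2, the inducible cyclooxygenase, by 5.63 ± 0.25. Ptgs2 was already lower on PBS replicate 3 (6.24) than on replicates 1 and 2 (7.20 and 7.33), while the LPS arrays read 12.53, 12.57 and 12.54.

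Gbp5, a guanylate-binding protein, rose from 6.32, 6.58 and 6.95 to a mean of 11.98 ± 0.03 (SD, n = 3) with LPS (5.36 ± 0.14, adjusted p = 2.73e-08), and Gbp4 from 6.78, 6.79 and 6.81 to 11.45, 11.50 and 11.71 (4.76 ± 0.07). Ifi205 (4.86 ± 0.15) and Ifi214 (4.59 ± 0.12), of the PYHIN family that includes cytosolic DNA sensors, and the antiviral GTPase gene Mx1 (4.48 ± 0.18) rose as well. The PYHIN and GBP genes lie among close relatives, and how the probes separate them was not checked here.

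Cd40, the receptor for the CD40 ligand of T cells, read 6.89, 7.01 and 6.73 with PBS and 12.05, 12.08 and 11.86 with LPS (5.12 ± 0.09), and Slamf7, a receptor of the SLAM family, 6.11, 6.44 and 6.06 and 11.17, 11.11 and 11.07 (4.91 ± 0.10). Edn1, the endothelin-1 gene, rose by 4.97 ± 0.20 and Has2, a hyaluronan synthase at the plasma membrane, by 4.69 ± 0.11. Has2 read 6.05, 6.18 and 6.08 before and 10.65, 10.74 and 10.98 after LPS. Clic5, a chloride intracellular channel protein, went from 6.01, 5.92 and 5.67 to 10.59, 10.55 and 10.86 (4.80 ± 0.13), and AA467197, also known as Nmes1, rose by 4.89 ± 0.11. All 15 of these largest rises of named genes outside the cytokines had an adjusted p between 4.3e-09 and 6.32e-07 and stayed called under every alternative tried. The 15 also differed between LPS and IL-4 in the direct test (limma, 46.9% of all rows called). That test shares the LPS arrays from which the 15 were picked, so it gives no independent support. The IL-4 arrays differed from PBS by −0.95 to 1.62 for these genes, and 8 of the 15 were called in that comparison. Over all rows it called 711 higher and 435 lower (limma).

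**Figure D2:**
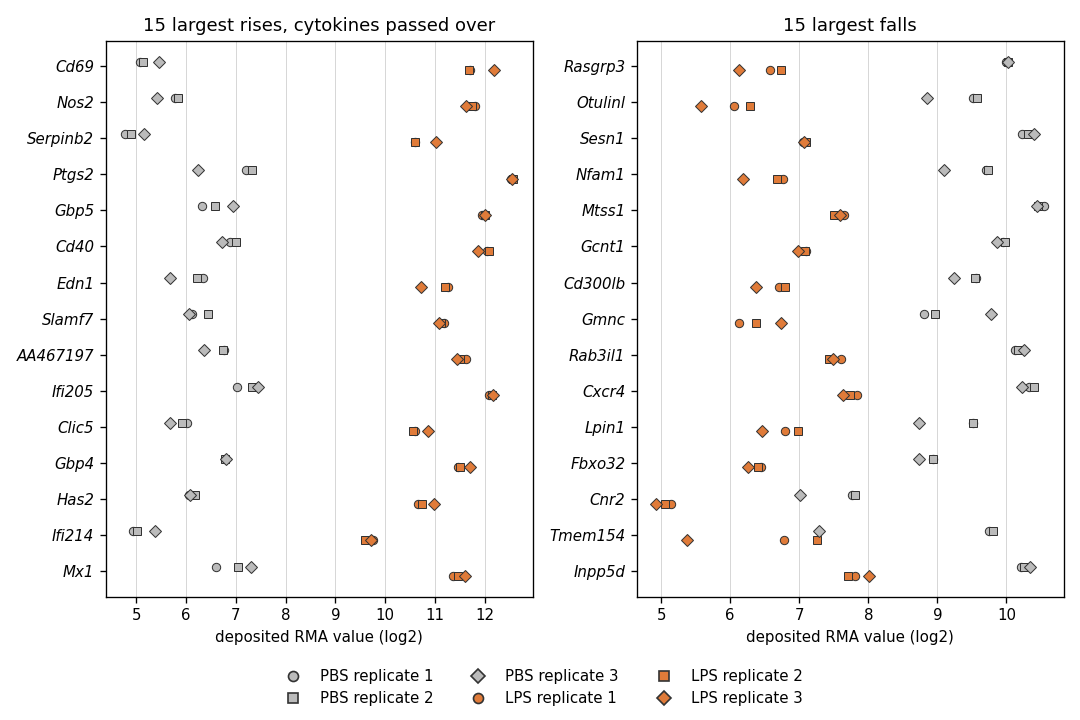
Deposited log2 values of the 15 genes with the largest rises, cytokines and chemokines passed over (left), and the 15 with the largest falls (right), on the 3 PBS arrays (grey) and 3 LPS arrays (orange). Rows without a symbol of their own were passed over. Marker shapes give the replicate number. The groups do not overlap for any of the 30 genes, since the choice of the genes required it. Replicate 3 lies apart in both groups for Tmem154, at 7.29 with PBS and 5.37 with LPS.

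The falls were smaller than the rises. Rasgrp3, an exchange factor that activates Ras and Rap downstream of diacylglycerol, read 10.00, 10.03 and 10.03 with PBS and 6.58, 6.74 and 6.12 with LPS, a difference of −3.54 ± 0.14 (SE, adjusted p = 2.67e-07), or 11.6-fold lower. Sesn1, a sestrin that restrains mTORC1 when leucine is scarce, went from 10.23, 10.31 and 10.40 to 7.06, 7.10 and 7.07 (−3.23 ± 0.05, adjusted p = 5.49e-09). Mtss1, which bends the plasma membrane at the actin cortex, read 10.55, 10.46 and 10.45 and then 7.65, 7.50 and 7.59 (−2.91 ± 0.06). In these 3 genes every LPS array lay well below all PBS arrays, and in Sesn1 and Mtss1 the LPS arrays lay together.

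Otulinl, a relative of the deubiquitinase OTULIN without its catalytic activity, read 9.52, 9.57 and 8.85 and then 6.05, 6.29 and 5.58 (−3.34 ± 0.22). Nfam1, a receptor with an ITAM motif, fell by 2.98 ± 0.19, from 9.71, 9.74 and 9.10 to 6.76, 6.68 and 6.19. Both were lower in replicate 3 of each group, and with the replicate number as a block their SEs were 0.06 and 0.05. Gcnt1, which starts the branched core 2 O-glycans, fell by 2.88 ± 0.05, Cd300lb, an activating receptor of the CD300 family, by 2.82 ± 0.12, and Rab3il1, an exchange factor for Rab GTPases, was lower too (−2.68 ± 0.06). Cxcr4, the CXCL12 receptor, went from 10.32, 10.40 and 10.23 to 7.84, 7.74 and 7.63 (−2.58 ± 0.07).

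Inpp5d encodes SHIP1, the phosphatase that removes the 5-phosphate of the PI3K product. It read 10.21, 10.26 and 10.34 with PBS and 7.80, 7.71 and 8.01 with LPS (−2.43 ± 0.08, adjusted p = 9.76e-08). Lpin1, a phosphatidate phosphatase of triglyceride synthesis, fell by 2.50 ± 0.21, Fbxo32, a subunit of a ubiquitin ligase known from muscle atrophy, by 2.50 ± 0.07, and Cnr2, the cannabinoid receptor of immune cells, by 2.48 ± 0.19. Cnr2 read 7.76, 7.80 and 7.01 and then 5.14, 5.05 and 4.93. Tmem154 differed by −2.48 ± 0.70 (adjusted p = 0.0216). Its call was lost in 5 of 18 alternatives, while with the replicate number as a block its SE was 0.20. Gmnc, a regulator of multiciliated cells, read 8.81, 8.96 and 9.77 and then 6.13, 6.38 and 6.74 (−2.76 ± 0.24), and the motile cilia genes that vary with replicate 3 are given above.

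For the motile cilia genes the pairing of arrays changed the calls. None of the 49 passed (median −0.29). With the replicate number as a block 26 fell, and without replicate 3 of either group 20 fell and 1 rose. Foxj1, their master regulator, read 9.66, 9.69 and 10.72 and then 8.36, 8.35 and 9.86 (−1.16 ± 0.43, adjusted p = 0.0631). With the block its adjusted p was 0.000743. Of 14 astrocyte markers 2 fell and 1 rose, and with the block 10 fell and 1 rose. Whether the falls of genes such as Gmnc come from microglia or from these other cells was not tested.

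The falls were set beside the IL-4 arrays. The IL-4 arrays differed from PBS by between −1.70 and 0.53 for the 15 genes, and 6 of the 15 were called in that comparison. The direct test of LPS against IL-4 shares the LPS arrays from which the 15 were picked, so it gives no independent support. In it, 14 of the 15 were lower with LPS than with IL-4. The exception was Tmem154, whose IL-4 arrays had a mean of 7.26 (LPS against IL-4, adjusted p = 0.368). That mean lay near PBS replicate 3 (7.29) and below PBS replicates 1 and 2 (9.75 and 9.81).

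Promoter sequences were searched for motifs of the factors that LPS is known to activate. RefSeq promoters (GRCm38.p6) matched 15060 of 18784 gene symbols, and the 250 bases before each annotated start were searched on both strands. A gene with several starts counted when any of its windows held the motif. A κB-type motif, GGGANTTTC or GGGANTTCC, was found for 7.13% of 631 genes at least 2-fold higher, for 7.89% of 190 at least 4-fold higher and for 2.45% of 408 at least 2-fold lower, against 2.89% of all 15060. An interferon response type motif, GAAANNGAA, was found for 17.7%, 24.2% and 6.37%, against 8.03%. The AP-1 type motif TGANTCA was found for 11.3%, 18.4% and 7.11%, against 7.17%, and the cAMP response type motif TGACGTCA for 3.65%, 2.63% and 1.23%, against 2.38%. Over all 32851 windows, the shares were 2.34%, 7.13%, 6.75% and 1.55%. The κB and interferon types were found together in 62 windows and shared bases in 10 of these. The shares are descriptions without a test, and a match is not a bound site.

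Promoters of 5 genes that rose are shown because they hold examples of 3 of these motifs. They give the 250 bases before a start of the gene, 5′ to 3′ on the strand of the gene, with every match of the 4 motif types on either strand in capitals. Tnfaip3 has 2 windows and Upp1 has 3, and the first that held the motifs is shown. Tnfaip3 encodes the ubiquitin-editing brake A20, Gpr84 a receptor for medium-chain fatty acids and Upp1 uridine phosphorylase. In Tnfaip3 the capitals mark the κB type, beginning 12 bases before the start, and the AP-1 type at 136 bases, and in Gpr84 the κB type at 134 and 37 bases. In Gbp5 they mark the κB type at 203 and 76 bases and the interferon response type at 164 bases, in Ifi205 the interferon response type at 134 bases and in Upp1 the AP-1 type at 45 bases.
Tnfaip3, chr10:19015411-19015660, minus strand: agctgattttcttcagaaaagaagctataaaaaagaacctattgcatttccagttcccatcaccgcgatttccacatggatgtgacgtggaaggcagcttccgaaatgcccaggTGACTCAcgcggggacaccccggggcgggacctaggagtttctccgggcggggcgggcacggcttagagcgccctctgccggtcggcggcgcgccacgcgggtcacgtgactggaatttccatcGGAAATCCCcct
Gpr84, chr15:103310439-103310688, minus strand: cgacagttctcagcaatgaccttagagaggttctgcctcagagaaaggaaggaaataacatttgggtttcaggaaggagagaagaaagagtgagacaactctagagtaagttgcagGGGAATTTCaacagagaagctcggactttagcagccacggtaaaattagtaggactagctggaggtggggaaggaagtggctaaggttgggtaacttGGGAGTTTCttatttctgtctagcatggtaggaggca
Gbp5, chr3:142496684-142496933, plus strand: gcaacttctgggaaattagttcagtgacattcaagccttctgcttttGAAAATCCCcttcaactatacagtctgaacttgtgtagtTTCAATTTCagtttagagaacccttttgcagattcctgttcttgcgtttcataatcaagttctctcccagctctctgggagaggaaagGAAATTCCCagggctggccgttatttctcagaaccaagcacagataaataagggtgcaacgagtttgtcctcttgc
Ifi205, chr1:174031756-174032005, minus strand: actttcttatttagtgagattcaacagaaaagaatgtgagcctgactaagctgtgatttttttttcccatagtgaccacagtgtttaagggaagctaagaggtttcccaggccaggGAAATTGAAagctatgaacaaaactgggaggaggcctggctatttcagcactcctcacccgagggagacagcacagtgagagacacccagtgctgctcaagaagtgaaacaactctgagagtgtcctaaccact
Upp1, chr11:9117758-9118007, plus strand: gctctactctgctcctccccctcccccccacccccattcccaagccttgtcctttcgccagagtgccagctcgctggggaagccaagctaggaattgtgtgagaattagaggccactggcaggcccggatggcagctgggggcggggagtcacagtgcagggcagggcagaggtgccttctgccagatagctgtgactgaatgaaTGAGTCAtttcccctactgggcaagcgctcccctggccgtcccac

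Signaling genes moved in both directions. Of 521 measured genes in the signaling lists, 158 rose and 191 fell (30.3% and 36.7%, against 15.4% and 22.4% of all rows), or 189 and 160 with array medians subtracted, and at least 2-fold, 75 rose and 55 fell. The all-row shares include dim rows, and of the 5303 rows in each of the brighter sets 1928 and 1883 fell. No list was compared with rows of like level. The NF-κB list rose almost whole, with 14 of 15 subunits, inhibitors and kinases higher, none lower and a median of 1.34. Nfkbiz, which encodes the nuclear inhibitor-like cofactor IκBζ, went from 7.41, 7.45 and 7.63 to 11.21, 11.14 and 11.01 (3.63 ± 0.07, adjusted p = 1.09e-08). Nfkbie, the IκBε gene, rose by 2.55 ± 0.05 and Nfkb2, the p100 subunit, by 2.36 ± 0.08. Inhibitors and subunits thus rose together, and Map3k14, the kinase of the noncanonical pathway, was the member that missed the threshold (−0.20 ± 0.11, adjusted p = 0.193).

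Of 34 adaptors and brakes of TLR and TNF signaling, 20 rose and 7 fell (median 0.64). Tnip3, a ubiquitin-binding partner of A20, rose by 3.45 ± 0.21, and Tnfaip3 itself went from 7.94, 8.11 and 8.30 to 11.34, 11.39 and 11.28 (3.22 ± 0.09). Zc3h12a, the ribonuclease Regnase-1 that degrades cytokine mRNAs, rose by 2.40 ± 0.10. Besides Otulinl, the falls were led by Tifab, an inhibitor of TIFA and TRAF6 signaling, from 9.55, 9.70 and 9.35 to 7.89, 7.93 and 7.93 (−1.62 ± 0.08), and Peli2, a ubiquitin ligase of the IRAK kinases (−1.21 ± 0.13). The deubiquitinase gene Cyld (0.01) and Ticam1 (0.31), the TRIF adaptor, did not pass, though Ticam1 had an adjusted p of 0.0047 with the replicate block.

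In the MAP kinase cascade 17 of 36 genes fell and 8 rose (median −0.27). Map3k8, the kinase Tpl2 that is freed from p105 by LPS, read 8.97, 9.00 and 8.53 and then 10.22, 10.15 and 10.00 (1.29 ± 0.12), and Mapkapk2, the p38 substrate that stabilizes cytokine mRNAs, and Map3k5 rose by 1.15 each. The falls were led by Mknk2 (−1.52 ± 0.10), a kinase of the cap-binding factor eIF4E, Map3k1 (−1.32 ± 0.05) and Map2k6 (−1.15 ± 0.11), a p38 activator. The brakes of the cascade went the other way more often, with 13 of 21 genes higher and 7 lower (median 0.39). Dusp2, a nuclear phosphatase of ERK and p38, rose from 6.42, 6.28 and 6.11 to 8.63, 8.31 and 9.06 (2.40 ± 0.17) and Dusp16, a JNK phosphatase, by 1.89 ± 0.07, while Dusp18 (−1.28 ± 0.19) and Dusp14 (−1.18 ± 0.15) fell.

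**Figure D3:**
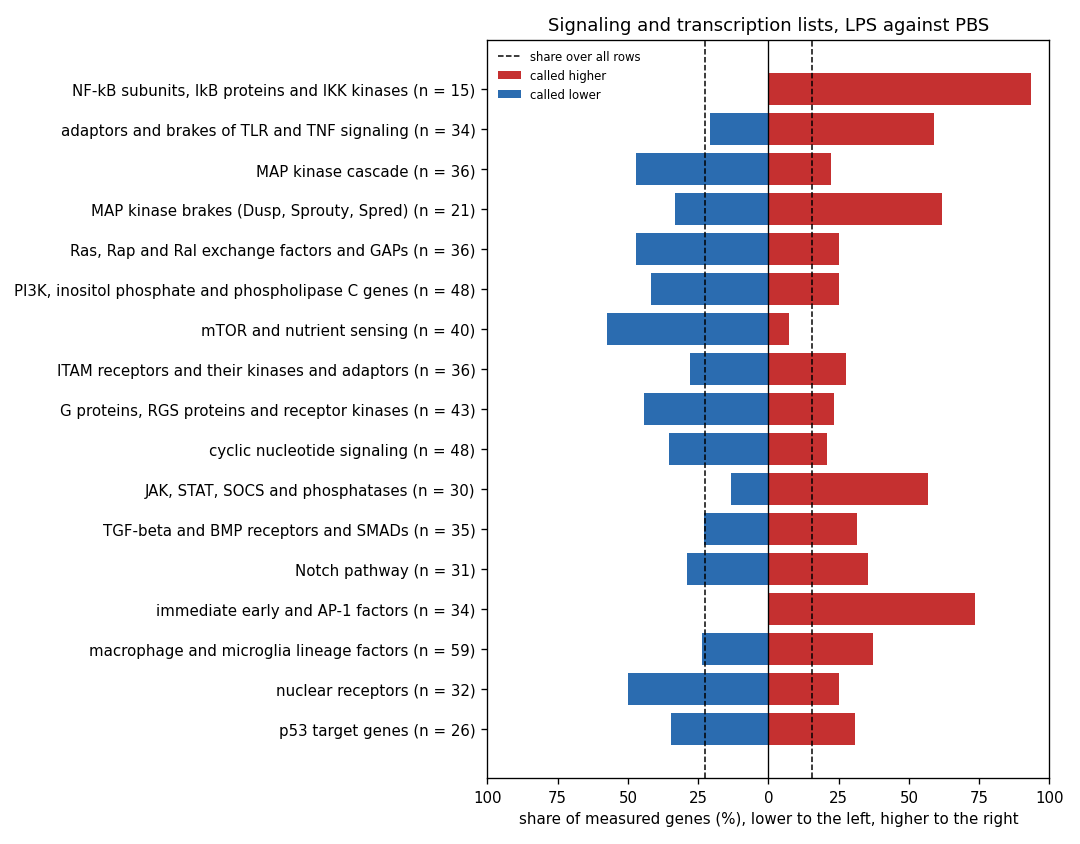
Share of the measured genes of the signaling and transcription lists described here that was called higher (red, to the right) or lower (blue, to the left) with LPS, in percent, with the number measured in parentheses. Dashed lines mark the shares over all rows, 15.4% and 22.4%. NF-κB and immediate early genes have no called fall with all arrays, and mTOR and nutrient sensing has 23 falls and 3 rises among 40 genes.

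Among the regulators of Ras and its relatives, close relatives moved in opposite directions. Of 36 exchange factors and GAPs for Ras, Rap and Ral 17 fell and 9 rose (median −0.24). Rasgrp1, a relative of Rasgrp3, went from 7.14, 7.37 and 8.05 to 10.12, 10.11 and 10.11 (2.59 ± 0.20, adjusted p = 1.68e-05), so that these related exchange factors moved in opposite directions. Rasgef1b rose by 2.08 ± 0.19 and Rapgef2 by 1.32 ± 0.07, and Rapgef5 (−1.46 ± 0.14) and the Ras GAP gene Rasal3 (−1.44 ± 0.16) fell.

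Nutrient sensing was the signaling list with the fewest rises among those of over 30 genes. Of 40 genes of mTOR and nutrient sensing 23 fell, 3 rose and 14 did not pass (median −0.40), 9 of the falls at least 2-fold. The falls held arginine and leucine sensors and energy sensors as well as factors of autophagy and lysosome biogenesis. Castor2, of the arginine sensor family, went from 9.18, 9.24 and 9.33 to 7.68, 7.71 and 7.84 (−1.51 ± 0.06), and Flcn, the folliculin GTPase activator at the lysosome, fell by 1.30 ± 0.19. The transcription factor genes Foxo3 (−1.28) and Tfeb (−1.06), the autophagy kinase gene Ulk1 (−1.04), the AMPK subunit gene Prkag2 (−1.13) and the translation repressor gene Eif4ebp2 (−1.05) fell as well. Sgk3 (1.01 ± 0.06), a kinase activated like AKT, Rictor (0.75 ± 0.08), the defining subunit of mTORC2, and the lysosomal factor gene Mitf (0.68) rose, and Mtor (−0.12) and Rptor (0.05) did not pass. The last 5 falls, Mtor and Rptor were chosen after their values had been seen.

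In the list of PI3K and phospholipase C genes 20 of 48 fell and 12 rose (median −0.22). Beside the fall of Inpp5d, Pik3ap1, the adaptor BCAP, rose from 10.12, 10.14 and 10.30 to 11.50, 11.38 and 11.45 (1.25 ± 0.06) and Inpp1, an inositol phosphatase, by 1.59 ± 0.08. Pik3r5, a regulatory subunit of PI3Kγ, rose by 1.45 ± 0.29 and Plcb2, a phospholipase C, fell from 9.46, 9.54 and 8.70 to 8.04, 8.13 and 7.02, and both calls were lost with the methods' t-test. Of 36 genes of ITAM signaling 10 rose and 10 fell (16 fell with the replicate block, 4 with array medians subtracted). Malt1, the paracaspase of the CARD complexes, read 9.17, 9.10 and 8.35 and then 11.58, 11.55 and 11.20 (2.57 ± 0.20), while its upstream partner Card9 fell by 1.55 ± 0.17, from 8.82, 8.88 and 8.45 to 7.37, 7.34 and 6.77. The kinase gene Src (1.30 ± 0.10) and the adaptor gene Lcp2 (1.29 ± 0.06) rose, Lat2 (−1.34 ± 0.15) fell, and the shared signaling chain Fcer1g did not pass (0.00).

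Of 43 G protein, RGS and receptor kinase genes 19 fell and 10 rose (14 and 15 with array medians subtracted, median −0.14). Rgs16 rose from 8.34, 8.30 and 7.80 to 11.03, 11.10 and 10.91 (2.86 ± 0.13), and Rgs2 fell from 10.44, 10.59 and 10.77 to 8.78, 8.74 and 8.63 (−1.89 ± 0.08). RGS proteins switch off G protein alpha subunits, and these 2 moved in opposite directions. Gnb4 rose by 2.27 ± 0.09, and Arrb1 (−1.54 ± 0.10), the beta-arrestin 1 gene, and Gna12 (−1.18 ± 0.05) fell. In cyclic nucleotide signaling 10 of 48 rose and 17 fell (14 and 14 with array medians subtracted, median 0.01). The rises were led by Pde4b, the phosphodiesterase that degrades cAMP in leukocytes, from 7.68, 7.79 and 8.14 to 10.34, 10.35 and 10.54 (2.54 ± 0.11), Creb5 (2.08 ± 0.07) and Crem (1.43 ± 0.05), and the falls by the cyclase gene Adcy7 (−0.85 ± 0.12).

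Of 30 genes of the JAK, STAT and SOCS list, which includes inhibitors of cytokine receptor signaling, 17 rose and 4 fell (median 0.41). The feedback inhibitors led the list. Socs3 went from 8.31, 8.21 and 8.09 to 11.05, 10.91 and 11.14 (2.83 ± 0.08), Socs1 rose by 2.81 ± 0.09, and Cish read 7.49, 7.38 and 6.18 and then 9.82, 9.79 and 8.90 (2.48 ± 0.36). Cish was lower in replicate 3 of both groups, and on the IL-4 arrays it was 2.42 higher than with PBS (LPS against IL-4, adjusted p = 0.889). Of 35 TGF-β and BMP genes 11 rose and 8 fell. Nrros, which anchors latent TGF-β1 on microglia, fell from 8.39, 8.39 and 8.35 to 6.87, 6.88 and 6.51 (−1.62 ± 0.10) and the receptor gene Tgfbr1 too (−1.05 ± 0.07), while Skil, a SMAD corepressor, rose by 1.40 ± 0.07 and Tgfb1 (0.06) did not pass. In the Notch pathway 11 of 31 rose and 9 fell. The ligands Jag1 (7.30, 7.40 and 7.59, then 9.65, 9.47 and 9.44, 2.09 ± 0.09) and Dll1 (1.15 ± 0.06) rose, and Lfng, the glycosyltransferase that tunes Notch receptors, fell by 1.47 ± 0.15.

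Of 34 immediate early and AP-1 transcription factor genes 25 rose and none fell (27 and 1 without replicate 3 of both groups, median 0.91), 17 of them at least 2-fold. Batf2 went from 6.84, 6.71 and 6.78 to 9.74, 9.56 and 9.38 (2.79 ± 0.09) and Csrnp1 from 6.76, 6.81 and 6.60 to 9.23, 9.35 and 9.11 (2.50 ± 0.08), while Egr2 (−0.12) and Bhlhe40 (−0.05) did not pass. Without replicate 3 of both groups Bhlhe40 was called lower (−0.27, adjusted p = 0.0117). Of 59 macrophage and microglia lineage factors 22 rose and 14 fell (median 0.07). Ets2 rose from 8.61, 8.68 and 8.47 to 11.04, 11.12 and 11.06 (2.49 ± 0.07) and Ets1 by 1.49 ± 0.07, whereas Fli1, of the same ETS family, fell from 9.56, 9.63 and 9.59 to 8.25, 8.26 and 7.75 (−1.51 ± 0.12). Cebpa, a factor of myeloid differentiation, read 9.24, 9.24 and 8.89 and then 7.33, 7.38 and 7.21 (−1.81 ± 0.10), and Lyl1 fell by 1.67 ± 0.11. Runx1 (0.10) and Mef2a (−0.05) did not pass.

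Nuclear receptors fell more often than they rose, with 16 of 32 lower and 8 higher (median −0.25). Rxra, the shared partner of the lipid-sensing receptors, read 9.82, 9.87 and 9.49 and then 7.82, 7.99 and 7.60 (−1.93 ± 0.12, adjusted p = 5.18e-06). Ppargc1a, the coactivator of mitochondrial biogenesis, went from 9.16, 9.18 and 9.15 to 7.29, 7.20 and 7.33 (−1.89 ± 0.05). For both genes every LPS array lay below every PBS array. Pparg read 9.47, 9.47 and 7.86 and then 7.66, 7.61 and 6.75 (−1.59 ± 0.43), with a call lost in 5 alternatives and an adjusted p of 0.000926 with the replicate block. The glucocorticoid receptor gene Nr3c1 (9.13, 9.18 and 9.15, then 10.17, 10.30 and 9.99) and Rorb (1.66 ± 0.07) rose. Of 26 p53 target genes 8 rose and 9 fell, with Fas (1.31 ± 0.05) among the rises and, after Sesn1, Trp53inp1 (−1.37 ± 0.07) among the falls.

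With the deposited values metabolic genes, like all rows, fell more often than they rose, while most of the changes of at least 2-fold were rises. Of 735 measured genes 284 (38.6%) fell and 128 (17.4%) rose, against 22.4% and 15.4% of all rows, which include dim rows. The median was −0.18. With array medians subtracted 160 rose and 200 fell, while over all rows 5872 rose and 3323 fell. At least 2-fold 36 fell and 52 rose, where 2.4% and 4.24% of all rows did. In the glycolysis list 12 of 40 rose and 12 fell. The rises were led by the glucose transporter gene Slc2a6 (9.57, 9.52 and 8.65, then 11.52, 11.62 and 10.87, 2.09 ± 0.27), Hk2 (8.06, 8.14 and 7.57, then 9.46, 9.38 and 9.38, 1.48 ± 0.14) and Pfkfb3 (1.21 ± 0.11), which makes the activator of phosphofructokinase. The falls were led by Pdk2 (9.62, 9.62 and 9.69, then 8.20, 8.31 and 8.41, −1.34 ± 0.07) and Pdk4 (−1.32 ± 0.41), kinases that inhibit pyruvate dehydrogenase, and Slc16a7 (−1.21 ± 0.19), a monocarboxylate transporter gene. The call of Pdk4 was lost in 5 alternatives. Aldoa (−0.10) and Aldoc (−0.34) did not pass, with an adjusted p of 0.00335 for Aldoc under the replicate block.

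Mitochondrial genes fell by small amounts. Of 30 genes of the citric acid cycle and citrate 17 fell and 2 rose (median −0.28). The rises were Acod1, which turns the intermediate aconitate into itaconate, from 8.98, 8.98 and 8.18 to 12.79, 12.79 and 12.75 (4.06 ± 0.19), and Dld (0.42 ± 0.08). Idh1, the cytosolic isocitrate dehydrogenase, fell by 0.93 ± 0.10, Me2 by 0.62 ± 0.06 and Idh2 by 0.47 ± 0.07, and citrate synthase, Cs, did not pass (−0.08). Of 63 nuclear genes of the respiratory chain 33 fell and none rose (median −0.20), with 42 falls under the replicate block and 13 with array medians subtracted. Ndufv3, of complex I, read 9.30, 9.33 and 9.25 and then 8.75, 8.95 and 8.74 (−0.48 ± 0.07), which was among the largest of these falls. Of 27 genes of the pentose phosphate pathway and glycogen 13 fell and 2 rose. Gyg, the glycogen primer, was among the falls (−0.82 ± 0.12) and the branching enzyme gene Gbe1 among the rises (0.64 ± 0.05).

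**Figure D4:**
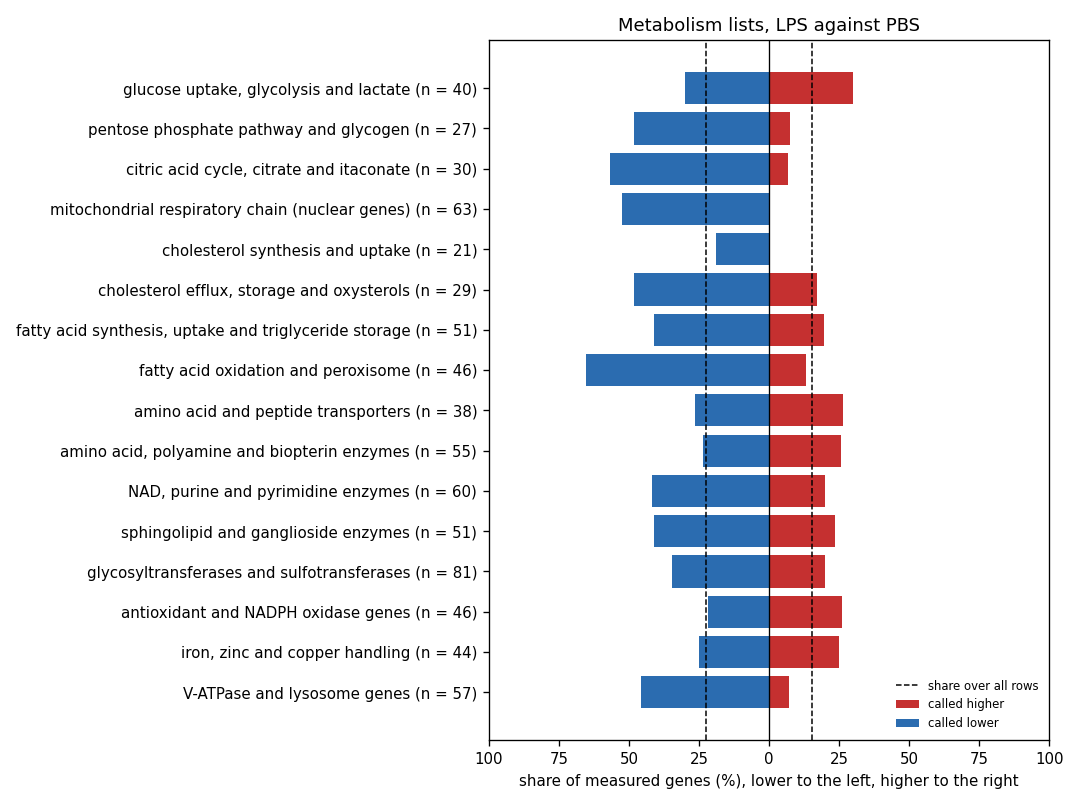
Share of the measured genes of each metabolism list called higher (red, to the right) or lower (blue, to the left) with LPS, in percent, drawn as for the signaling lists. Fatty acid oxidation and peroxisome has 30 falls among 46 genes, and the respiratory chain and cholesterol synthesis have no called rise.

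Genes of fatty acid oxidation fell in larger number than they rose. In the list of oxidation and peroxisome genes 30 of 46 fell and 6 rose (median −0.36). Abcd2, a peroxisomal importer of very long-chain fatty acids, read 9.75, 9.83 and 9.79 and then 7.72, 7.77 and 7.32 (−2.19 ± 0.11, adjusted p = 1.09e-06), and the thioesterase gene Acot2 (−1.36 ± 0.15) and the peroxisomal oxidase gene Acox3 (−1.07 ± 0.15) followed. Crot, a peroxisomal carnitine acyltransferase, was among the rises (0.92 ± 0.10). In the list of fatty acid synthesis, uptake and storage 21 of 51 fell and 10 rose. Dgat2, which makes triglycerides for lipid droplets, rose from 7.02, 7.18 and 7.02 to 9.17, 9.19 and 9.28 (2.14 ± 0.06) and the lipid droplet gene Hilpda by 1.27 ± 0.20, while Lpin1, of an earlier step, and the lysosomal phospholipase gene Pla2g15 (−1.93 ± 0.15) fell.

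Cholesterol genes depended on the pairing of the arrays. In synthesis and uptake 4 of 21 fell and none rose, and with the replicate block 16 fell, against 14 without replicate 3 of either group. Sqle, squalene epoxidase, read 10.63, 10.55 and 10.42 and then 9.75, 9.89 and 9.66 (−0.77 ± 0.08), and Dhcr7, of the last step, fell by 1.19 ± 0.23. In efflux, storage and oxysterols 14 of 29 fell and 5 rose (median −0.30). Ch25h, which makes 25-hydroxycholesterol, rose from 8.12, 8.04 and 8.51 to 12.09, 12.05 and 12.26 (3.91 ± 0.12), and Cyp7b1, which acts on that product, by 1.41 ± 0.18. Cyp27a1, which makes another oxysterol, fell by 1.23 ± 0.12, the cholesterol ester hydrolase gene Nceh1 by 1.26 ± 0.16 and the exporter gene Abcg1 too (−1.07 ± 0.27), and Apoe (−0.18) did not pass but was called without replicate 3 of both groups (−0.20, adjusted p = 0.02). The calls of Dhcr7 and Abcg1 were lost with the methods' t-test.

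Of 38 amino acid transporters 10 rose and 10 fell (16 fell with the replicate block). Slc25a22, a mitochondrial glutamate carrier, went from 7.49, 7.54 and 7.69 to 9.99, 9.96 and 10.31 (2.51 ± 0.10), and the arginine transporter gene Slc7a2 (1.78 ± 0.15) and the cystine exchanger gene Slc7a11 (1.73 ± 0.23) rose, whereas the lysosomal transporters Slc36a1 (10.25, 10.24 and 9.63, then 8.69, 8.68 and 8.37, −1.46 ± 0.16) and Slc38a9 (−1.08 ± 0.10), an arginine sensor of mTORC1, fell. Of 55 amino acid, polyamine and biopterin enzymes 14 rose and 13 fell. After Nos2 the rises were led by Gch1, the first enzyme of its cofactor tetrahydrobiopterin (6.76, 6.76 and 5.98, then 9.72, 9.76 and 9.45, 3.14 ± 0.20), and Hdc, which makes histamine (5.94, 6.10 and 6.51, then 8.61, 8.60 and 8.42, 2.36 ± 0.13). Of 60 NAD, purine and pyrimidine enzymes 25 fell and 12 rose (18 and 17 with array medians subtracted). Upp1 went from a mean of 6.53 ± 0.03 (SD, n = 3) to 10.55, 10.46 and 10.64 (4.02 ± 0.06, adjusted p = 4.3e-09), the nucleotide kinase gene Cmpk2 rose by 3.26 ± 0.10 and the pyrimidine nucleotidase gene Nt5c3 by 2.74 ± 0.13, while adenosine deaminase, Ada (−1.16 ± 0.23), and the ectoenzyme gene Nt5e (−1.04 ± 0.14) fell. The call of Ada was lost with the methods' t-test.

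Of 51 sphingolipid and ganglioside enzymes 21 fell and 12 rose (15 and 13 with array medians subtracted). Cerk, ceramide kinase, read 9.68, 9.72 and 9.39 and then 7.48, 7.64 and 7.15 (−2.17 ± 0.13), and B4galnt1, which makes complex gangliosides, fell by 1.16 ± 0.14, while Cers6, a ceramide synthase, rose by 1.49 ± 0.09 and Sphk1, sphingosine kinase 1, by 1.20 ± 0.13. Of 81 glycosyltransferases and sulfotransferases 28 fell and 16 rose (22 and 25 with array medians subtracted). Beside Has2 and Gcnt1, Has1 rose by 1.91 ± 0.20 and Mgat4a, which branches N-glycans, by 1.71 ± 0.08, and St6gal1, which adds terminal sialic acid, fell from 9.22, 9.34 and 9.67 to 7.38, 7.44 and 7.60 (−1.94 ± 0.12).

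Redox, metal and lysosome genes closed the metabolic lists. Of 46 antioxidant and NADPH oxidase genes 12 rose and 10 fell (16 fell with the replicate block). Sod2, the mitochondrial superoxide dismutase, went from 11.01, 11.06 and 10.85 to 12.50, 12.45 and 12.53 (1.52 ± 0.06) and the thioredoxin reductase gene Txnrd1 rose by 1.12 ± 0.10, while Txnip, which binds thioredoxin and limits glucose uptake, fell from 10.89, 10.93 and 11.22 to 9.29, 9.36 and 9.64 (−1.59 ± 0.11). Of 44 metal genes 11 rose and 11 fell. The zinc and iron importer gene Slc39a14 rose by 1.72 ± 0.10, and Slc40a1, the iron exporter ferroportin, read 9.42, 9.56 and 8.22 and then 7.54, 7.56 and 6.18 (−1.97 ± 0.43), a call lost with the methods' t-test. Hamp, the hormone that degrades ferroportin, read 3.49, 3.29 and 3.23 and then 7.85, 7.41 and 3.71, so that its rise of 2.99 ± 0.91 rested on LPS replicates 1 and 2, and its call was lost in 7 alternatives. Of 57 V-ATPase and lysosome genes 26 fell and 4 rose (42 and 4 with the replicate block, 9 and 4 with array medians subtracted). The sulfatase gene Sgsh (8.44, 8.42 and 8.25, then 7.04, 7.20 and 6.92, −1.31 ± 0.08) and Dnase2a (−1.07 ± 0.16) were among the falls that kept their call under every alternative, and Ctsc, which activates serine proteases, rose by 0.73 ± 0.06.

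Of 596 measured genes in the surface lists 155 rose (26.0%, against 15.4% of all rows) and 128 fell (21.5%, against 22.4%), or 214 and 98 with array medians subtracted, with a median of 0.03, and at least 2-fold 84 rose and 35 fell. Costimulatory and checkpoint molecules were the list with the highest share of rises, 23 of 35 with 2 falls (median 0.81). After Cd40 and Slamf7, Slamf1 rose from 4.93, 5.04 and 4.66 to 9.48, 9.55 and 8.52 (4.31 ± 0.25). Among genes chosen after their values had been seen, Cd86 (1.93 ± 0.12) and Cd80 (1.68 ± 0.27), the ligands of CD28, Icosl (2.45 ± 0.07), the ligand of ICOS, and the checkpoint ligand gene Cd274 (2.50 ± 0.26) rose as well. Cd28 itself fell, from 8.95, 8.73 and 7.18 to 6.46, 6.40 and 5.06 (−2.31 ± 0.50, adjusted p = 0.00622, a call lost with the methods' t-test), and Ly9 (−0.02) and Cd48 (−0.21) did not pass, with an adjusted p of 0.0372 for Cd48 under the replicate block.

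Of 42 C-type lectins 10 rose and 2 fell (13 and 4 with the replicate block, 20 and 1 with array medians subtracted). Clec4e, the receptor Mincle, went from 8.36, 8.58 and 7.63 to a mean of 12.15 ± 0.13 (SD, n = 3) with LPS (3.95 ± 0.21) and Klrk1, which encodes NKG2D, from 3.95, 4.02 and 4.43 to 6.38, 5.48 and 6.02 (1.83 ± 0.21), while Clec7a, Dectin-1, did not pass (−0.16). Of 36 Fc, complement and scavenger receptors 4 rose and 11 fell (7 and 18 with the replicate block, 6 and 8 with array medians subtracted). The scavenger receptor genes Olr1 (5.93, 6.07 and 6.49, then 10.17, 10.14 and 10.36, 4.06 ± 0.14) and Marco (6.02, 5.96 and 6.62, then 10.11, 9.90 and 10.53, 3.98 ± 0.20) rose about 16-fold each, and no other gene of the list rose past 2-fold. The sorting receptor gene Sort1 fell by 0.78 ± 0.10, and Fcgr2b (0.23) and C3ar1 (−0.04) did not pass, with an adjusted p of 0.0111 for Fcgr2b under the replicate block. Of 20 Toll-like receptors and their partners 5 rose and 4 fell. Tlr3 rose from 9.44, 9.37 and 9.42 to 11.18, 11.25 and 11.26 (1.82 ± 0.05), Tlr2 by 1.83 ± 0.16 and the LPS coreceptor gene Cd14 by 1.64 ± 0.09.

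Paired and inhibitory receptors held some of the largest falls at the surface. Of 40 SIGLEC, CD300, TREM and paired receptors 12 fell and 7 rose (19 and 7 with the replicate block, 10 and 11 with array medians subtracted). Cd300lb read 9.56, 9.54 and 9.24 and then 6.71, 6.80 and 6.37, Cd300a, an inhibitory member, fell from 10.66, 10.69 and 10.23 to 8.60, 8.58 and 7.95 (−2.15 ± 0.19), and Vsir, the checkpoint protein VISTA, from 10.53, 10.55 and 10.54 to 8.75, 8.74 and 8.43 (−1.90 ± 0.08). Trem1, an amplifier of TLR signaling, rose from 5.99, 5.98 and 4.76 to 8.97, 8.95 and 8.69 (3.29 ± 0.29), and Siglece, an inhibitory sialic acid receptor, by 2.03 ± 0.13. Of 24 genes for the uptake of apoptotic cells 7 rose and 6 fell (10 fell with the replicate block), with Xkr8, a scramblase that exposes phosphatidylserine, higher by 1.95 ± 0.06 and Itgb5, an integrin of phagocytosis, lower by 0.92 ± 0.10.

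**Figure D5:**
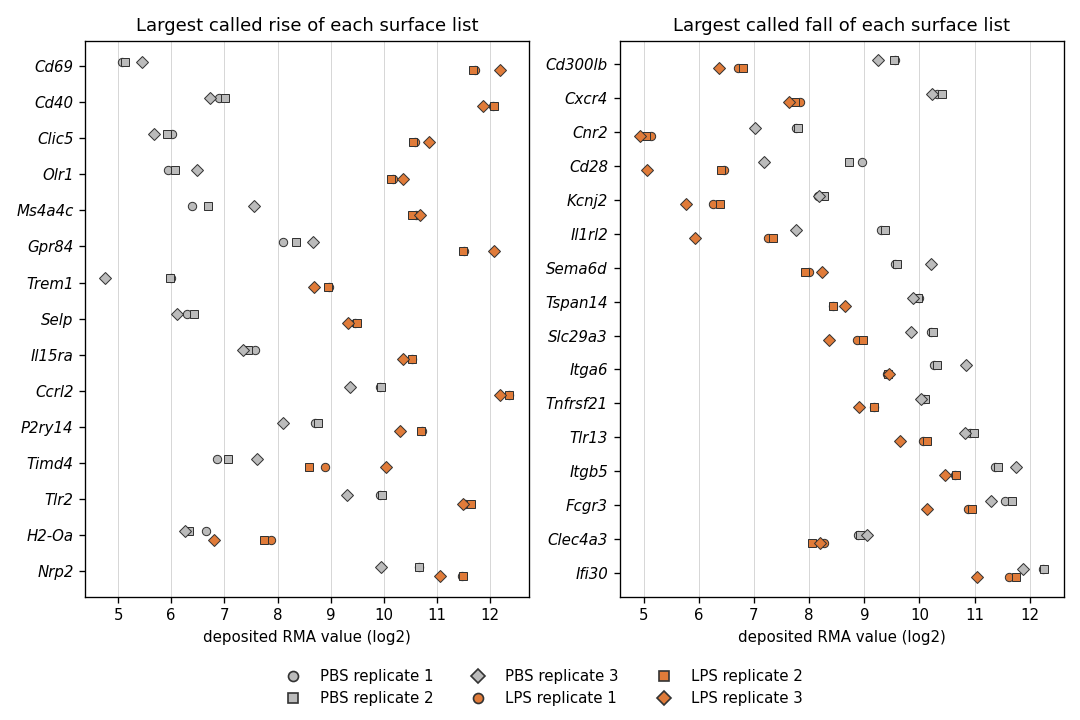
Deposited log2 values on the 3 PBS arrays (grey) and 3 LPS arrays (orange) of the gene with the largest called rise (left) and the largest called fall (right) in each surface list, with a gene that leads several lists drawn once. Marker shapes give the replicate number. Cd69, Cd40 and Clic5 start between 5.07 and 7.01 and end between 10.55 and 12.18, and Cd28 and Il1rl2 are lowest in replicate 3 of both groups.

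Of 28 chemokine and chemoattractant receptors 8 rose and 7 fell. Ccrl2, which holds chemerin at the surface without signaling, rose from 9.93, 9.94 and 9.37 to 12.36, 12.36 and 12.19 (2.56 ± 0.14) and the formyl peptide receptor gene Fpr2 by 2.35 ± 0.11. Beside Cxcr4, the fractalkine receptor gene Cx3cr1 read 9.15, 9.22 and 10.86 and then 7.74, 7.60 and 8.49 (−1.80 ± 0.44, a call lost with the methods' t-test), and C5ar2 fell by 1.17 ± 0.10. Of 22 purine receptors and ectoenzymes 9 fell and 4 rose. P2ry14, the receptor for UDP-glucose, rose from 8.71, 8.77 and 8.10 to 10.72, 10.70 and 10.30, against falls of P2ry1 (8.65, 8.55 and 8.10, then 7.06, 7.07 and 7.09, −1.36 ± 0.13), of the ATP-gated channel gene P2rx7 (9.62, 9.60 and 9.64, then 8.34, 8.48 and 8.37, −1.22 ± 0.05) and of the lysosomal nucleoside transporter gene Slc29a3 (−1.36 ± 0.16). On the IL-4 arrays P2ry1 was higher than with PBS, by 0.74, and the direct test of LPS against IL-4 gave an adjusted p of 3.48e-06.

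Of 64 receptors for lipids, metabolites and amines and orphan receptors 17 rose and 16 fell. Gpr84 went from 8.11, 8.34 and 8.66 to 11.51, 11.50 and 12.08 (3.33 ± 0.18), the receptor gene Hcar2 for hydroxybutyrate and niacin from 7.71, 7.58 and 6.43 to 10.06, 9.91 and 10.20 (2.82 ± 0.29) and the bradykinin receptor gene Bdkrb1 from 6.62, 6.55 and 7.10 to 9.27, 9.28 and 9.96 (2.75 ± 0.21). After Cnr2 the falls were led by Gpr146, from 8.75, 8.80 and 8.75 to 6.44, 6.46 and 6.52 (−2.30 ± 0.04, adjusted p = 9.46e-09), and Gpr65, a proton sensor (−1.78 ± 0.31, a call lost with the methods' t-test). Of 58 ion channels 20 fell and 11 rose. Kcna3, the potassium channel Kv1.3, rose from 7.43, 7.25 and 7.21 to 9.46, 9.39 and 9.44 (2.14 ± 0.06), and the inward rectifier genes Kcnj2 (8.16, 8.27 and 8.18, then 6.26, 6.39 and 5.77, −2.06 ± 0.14) and Kcnj13 (−1.77 ± 0.10) fell. Tpcn1, a channel of endosomes and lysosomes, fell by 1.48 ± 0.08.

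Receptors for cytokines and adhesion completed the surface lists. Of 53 cytokine and colony stimulating factor receptors 17 rose and 7 fell. Il15ra, which presents IL-15 to lymphocytes, rose from 7.58, 7.44 and 7.35 to 10.54, 10.53 and 10.36 (3.02 ± 0.08), Il18bp, a soluble IL-18 inhibitor, by 1.85 ± 0.08 and Il1rap, the shared IL-1 receptor chain, by 1.70 ± 0.10, while Il6ra fell by 1.03 ± 0.09 and Csf1r, the M-CSF receptor, too (−0.76 ± 0.10). Il1rl2, the IL-36 receptor, read 9.30, 9.38 and 7.76 and then 7.25, 7.35 and 5.93 (−1.97 ± 0.48, a call lost with the methods' t-test). In the TNF receptor family 10 of 28 rose and 3 fell (5 fell with the replicate block), after Cd40 with Tnfrsf11b, the decoy receptor osteoprotegerin (6.69, 6.77 and 6.85, then 8.57, 8.73 and 9.02), and Tnfrsf12a (1.58 ± 0.09). Of 50 integrins and adhesion molecules 14 rose and 9 fell (17 fell with the replicate block). Selp, P-selectin, read 6.30, 6.42 and 6.11 and then 9.45, 9.49 and 9.32 (3.15 ± 0.08), Sele, E-selectin, rose by 2.09 ± 0.13 and Itga5, the fibronectin receptor chain, by 2.19 ± 0.12, and Itga6, a laminin receptor chain, fell by 1.05 ± 0.14. The selectins are best known from endothelium, and of 13 endothelial and mural cell markers 1 rose and 2 fell with LPS (2 and 3 with the block), while the part of such cells was not tested.

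Of 35 tetraspanins and MS4A genes 12 fell and 6 rose (19 and 8 with the replicate block, 6 and 9 with array medians subtracted), with Ms4a4c (6.39, 6.69 and 7.56, then 10.60, 10.53 and 10.68, 3.72 ± 0.25) and Ms4a4d (1.79 ± 0.07) higher and Tspan14, a partner of the protease ADAM10, lower by 1.43 ± 0.07. Of 54 plexins, neuropilins, semaphorins and ephrins 10 rose, none by 2-fold, and 7 fell (11 fell with the replicate block), led by Sema6d (9.56, 9.59 and 10.21 with PBS, then a mean of 8.05 ± 0.16 (SD, n = 3), −1.73 ± 0.16). Of 17 genes of MHC class II presentation 4 rose and 4 fell, and Cd74 (0.47) and H2-Aa (0.22), which varied from 7.37 to 9.67 within the PBS arrays, did not pass. Of the 23 microglia and macrophage markers 12 fell and 3 rose (8 and 3 with array medians subtracted, median −0.34), where 22.4% and 15.4% of all rows did. Of the marker lists of other cells, 3 of 15 neuron genes rose and 0 fell (3 and 1 with the replicate block), 1 of 12 oligodendrocyte lineage genes fell (3 with the block), 1 of 14 fibroblast and meninges genes fell (2 with the block, and 1 rose) and 3 of 17 lymphocyte and neutrophil genes rose (1 without replicate 3 of both groups). The shares of rises, 20.0% of the neuron and 17.6% of the lymphocyte and neutrophil genes, were near the 15.4% of all rows.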

How the data were processed

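Expression was measured on Affymetrix mouse exon arrays, 3 each of microglia given PBS, LPS or IL-4. The deposited values are log2 intensities made by the authors with RMA (affy package, versions not given in the sources used here), which corrects background, quantile normalizes and summarizes probes to 1 row per gene. Rows were named through the platform annotation, and 18786 of 21212 had a single symbol.

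All 9 arrays were fitted with limma 3.58.1 (R 4.3.3, lmFit and eBayes) with a mean per group. LPS was compared with PBS, and LPS with IL-4 and IL-4 with PBS where quoted, with Benjamini-Hochberg adjustment over 21212 rows and a threshold of 0.05. No row was left out. The residual degrees of freedom were 6 and the prior degrees of freedom 2.38. The scripts were tested on simulated data. The number of arrays, 3 in each group, limits the precision.

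The methods of the study name a t-test. It was run as an alternative with equal variances. The 18 alternatives also covered the samples in the fit, the variance prior, array weights, scaling, a filter on dim rows, the replicate number as a block and left-out arrays. After removal of group means, PBS and LPS arrays of the same number correlated over rows with r = 0.578, 0.651 and 0.800, so the numbers were taken to pair these arrays. PBS replicate 1 correlated similarly with LPS replicate 2 (0.605), and PBS replicate 2 with LPS replicate 1 (0.542). With replicate 3 apart in both groups, these values cannot tell how replicates 1 and 2 pair. IL-4 and PBS arrays of the same number gave 0.339, −0.255 and 0.075, so the numbers were not shown to pair the IL-4 arrays. Replicate 3 of PBS correlated negatively with LPS replicates 1 and 2.

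A signaling list is included in the total of the signaling lists and is not reported here. The gene lists and the genes named were chosen with earlier results of these data known. Named were the 15 largest rises (cytokines passed over) and 15 largest falls among called genes with a symbol of their own whose groups did not overlap. Each list added at most 3 called rises, 3 called falls and 2 highly expressed genes that missed the threshold. Cd274, Cd80, Cd86, Icosl, Gfap, Itgam, P2ry12, Foxo3, Tfeb, Ulk1, Prkag2, Eif4ebp2, Mtor and Rptor lie outside this rule and were chosen after their values were seen.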

Additional observations from a re-analysis of the deposited data

How the results depend on the processing

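Counts of 2 kinds left the range of 1.5 times. With the median of each array subtracted, 5872 genes were called higher against 3266. With the methods' t-test, 3050 were called lower against 4748. The counts past 2-fold, 4-fold and 16-fold stayed within 1.5 times under the 18 alternatives. Leaving out a single array gave 2736 to 3860 genes higher and 3944 to 4955 lower, 862 to 945 and 490 to 560 past 2-fold, 268 to 283 and 32 to 50 past 4-fold, and 48 to 59 at least 16-fold higher.

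With the replicate number as a block on the LPS and PBS arrays, 3948 genes were called higher and 6119 lower, and over all 9 arrays 3659 and 5329. The replicate block removed the call of none of the 215 named genes that were called and added those of Foxj1, Ticam1, Aldoc, Cd48, Fcgr2b and Gfap. Of the 215, 16 lost their call under at least 1 alternative, all 16 under the methods' t-test, 4 with 6 arrays only and 1 (Itgam) with array medians subtracted. Among the 240 named genes no direction was reversed in a called value, and 15 genes gained a call. The causes were not tested. Changes near 0 on dim rows cannot be separated from the spread with 3 arrays a group.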
